A study of Mus musculus with 6 samples.

Results

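Transcripts of the bHLH-PAS transcription factors were examined in mouse embryonic fibroblasts (MEFs) that carried or lacked Mcm8. Sim2 transcripts were 20.9-fold and Ahr transcripts 5.55-fold more abundant in KO than in WT libraries, as ratios of mean CPM (counts scaled to a library total of 1000000). Arnt, the general partner of both factors, differed by 1.10-fold, and Hif1a, the family member with the highest level, by 1.01-fold. Of 13 AHR target genes listed outside the members 0 rose, but 7 of the 13 had at most 3 counts in every library. Over all genes tested 4.97% were called higher, and at that share so short a list holds few calls or 0. Ahrr, Tiparp and Cyp1b1, the members regulated by AHR, had log2 fold changes of 0.57, 0.12 and 0.31 in KO against WT. Among the genes of the 6 pathway lists that passed the test, Adm, Arntl2 and Arntl fell most. The members were 10 of the 55565 genes in the deposited tables: Ahr, Ahrr, Arnt, Arnt2, Sim1, Sim2, Hif1a, Epas1, Tiparp and Cyp1b1. They were selected by name around Sim2 and Ahr, which were picked because they were higher in the KO libraries analysed here. The KO and WT values of the members therefore chose them and are given as a description, with no p-value printed for any member. Counts of members past a threshold are a description too.

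The study asked whether loss of MCM8, a DNA helicase of the MCM family, altered transcription in MEFs, and sequenced bulk RNA of 3 WT and 3 KO libraries. The cells were taken at E13.5 from embryo trunks after mating of Mcm8 heterozygotes of mixed strain (C57BL/6J with ICR), the KO allele having been made with CRISPR/Cas9. WT and KO cells alike were immortalized with an SV40 lentivirus and selected with puromycin, so none of them was a primary culture. The study's methods call the 3 libraries of a genotype biological repeats, but neither they nor the labels say whether these were separate embryos or cultures, and if they were not, the p-values measure only the technical spread between libraries.

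bHLH-PAS proteins bind DNA in pairs. A signal-regulated subunit (AHR, AHRR, SIM1, SIM2, HIF1A or EPAS1) joins a general partner (ARNT or ARNT2), so that the signal-regulated subunits draw on a shared partner. AHR is a receptor for dioxins, tryptophan metabolites and other small molecules and waits in the cytosol bound to HSP90 and PTGES3 until a ligand sends it to the nucleus. AHRR and TIPARP are induced by AHR and repress it, and CYP1B1, an enzyme that oxidizes steroids and polycyclic hydrocarbons, is an AHR target with a high basal level in mesenchymal cells. SIM1 and SIM2 are the mammalian counterparts of the fly midline factor Single-minded. SIM1 is needed for neurons of the hypothalamus, and SIM2 is expressed in the embryonic brain, palate, ribs and limb muscle and can repress transcription. HIF1A and EPAS1 carry the response to low oxygen and are controlled largely through the stability of their proteins.

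Promoters of members and of AHR target genes were searched, on both strands, for GCGTG, the core bound by AHR with ARNT, for the longer AHR form TNGCGTG, which contains GCGTG, and for ACGTG, a core read by HIF and SIM pairs with ARNT. RefSeq promoters of 300 bases (250 before the start and 50 after it, GRCm38.p6) matched 7 of the 10 members, namely all but Sim2, Ahr and Epas1. GCGTG was present in 4 of the 7 (Ahrr, Arnt, Tiparp and Cyp1b1), TNGCGTG in 1 (Ahrr) and ACGTG in 1 (Hif1a). Of the 13 AHR target genes outside the members 8 were matched, with GCGTG in 3 (Cyp1a1, Gsta1 and Lpcat2) and TNGCGTG and ACGTG in 0. Over 32851 promoters of the same length GCGTG was found in 32.4%, TNGCGTG in 5.07% and ACGTG in 19.6%. The windows below show 30 bases around a motif in Ahrr, Tiparp and Cyp1b1, the members regulated by AHR, in Cyp1a1, the gene that AHR is best known to induce, and in Hif1a. They are written 5′ to 3′ along the gene's own strand, and capitals mark the motif, which reads CACGC where it lies on the other strand.
Ahrr: ggcggggcggcTCGCGTGctggggtggggc
Tiparp: ctccgtccggagCACGCgcacgggaggcgg
Cyp1b1: cgtcccgcccctCACGCcccaccccctaag
Cyp1a1: tcagataaggagGCGTGgccaacagacaca
Hif1a: tggctgagagcaACGTGggctggggtgggg
The Ahrr window lies at chr13:74292342-74292371 on the minus strand, and that of Tiparp at chr3:65528265-65528294 on the plus strand. The Cyp1b1 window lies at chr17:79715120-79715149 on the minus strand. The Cyp1a1 window is chr9:57697547-57697576 and the Hif1a window chr12:73907785-73907814, both on the plus strand. A match describes letters in a promoter and is not a measure of binding.

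The deposited counts summed to between 12722979 and 21022755 per library. Mcm8 itself was at 14.4 ± 1.99 CPM in WT and 4.26 ± 0.170 CPM in KO (SD, n = 3 each), so 29.6% of its transcript level was still counted in KO. Xist, the RNA that coats the inactive X chromosome of female cells, averaged 1196 CPM in WT against 481 CPM in KO. Across 4 Y-linked genes the summed level was 24.3 to 25.9 CPM in WT against 108 to 126 CPM in KO. These sex-linked genes moved with the genotype, and their part in the results given here was not tested. All 10 fibroblast markers on the list, collagens among them, had counts in every library, and markers of other cell types follow the results on the pathways.

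Among the signal-regulated subunits, Sim2 differed most. Sim2 lies on chromosome 16 from 93885790 to 93927891 on the plus strand (GRCm39, as in the deposited tables). Its counts were 35 in WT1, 31 in WT2 and 49 in WT3, against 1157 in KO1, 808 in KO2 and 880 in KO3. On the FPKM scale, which divides by gene length and library size, its level was 0.650, 0.523 and 0.617 in WT and 12.9, 11.5 and 12.96 in KO. The lowest KO library thus lay far above the highest WT library, and no WT library was without Sim2 reads. The log2 fold change of KO against WT was 4.38 (SE 0.13). Between libraries of a genotype the CPM of Sim2 varied with a coefficient of variation (CV) of 11.1% in WT and 6.81% in KO, where counting error alone would give 16.2% and 3.25%. The WT libraries therefore agreed within counting error, whereas the KO libraries spread somewhat more than it. Among the 26898 genes with counts, the mean FPKM of Sim2 stood at percentile 50.9 in WT and at percentile 84.1 in KO.

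Ahr, the dioxin receptor, was the other subunit that stood apart. It lies on chromosome 12 from 35547973 to 35585037 on the minus strand. Its counts were 19 in WT1, 27 in WT2 and 34 in WT3, against 176 in KO1, 174 in KO2 and 165 in KO3. Its level was 0.242, 0.312 and 0.293 FPKM in WT and 1.34, 1.69 and 1.66 FPKM in KO, with no overlap between genotypes. The log2 fold change was 2.45 (SE 0.21). Ahr remained a gene of modest level in KO, where its mean FPKM stood at percentile 59.4, from 43.6 in WT. In these bulk samples, more cells with a transcript and more transcript per cell cannot be told apart, for Ahr, Sim2 and all other genes.

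Ahrr, the AHR repressor, lies on chromosome 13 from 74359237 to 74440450 on the minus strand. It had 28, 65 and 70 counts in the WT libraries and 94, 86 and 102 in the KO libraries. On the FPKM scale WT2 (0.490) lay above KO1 (0.467), so the genotypes overlapped, and WT1 was the low library at 0.232. The log2 fold change was 0.57 (SE 0.21), and it ranged from 0.34 to 0.79 when single libraries were left out.

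Sim1, the closest relative of Sim2, stayed near the limit of what these libraries could measure. It lies on chromosome 10 from 50770850 to 50865248 on the plus strand and had 9, 10 and 23 counts in WT and 43, 34 and 14 in KO. The KO3 library was below WT3 on the FPKM scale, at 0.101 against 0.142, while KO1 and KO2 were higher than every WT library, at 0.234 and 0.236. The log2 fold change was 0.87 (SE 0.38). The CV of its CPM was 34.3% in WT and 40.7% in KO, against 26.7% and 18.2% from counting alone.

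Hif1a (chromosome 12, from 73948149 to 73994304, plus strand) had the highest level of the 10 members in every library. Its level was 35.7, 36.7 and 32.8 FPKM in WT and 34.9, 36.5 and 34.6 FPKM in KO, with the genotypes overlapping. Its log2 fold change was 0.01 (SE 0.07). Epas1, which encodes the related factor HIF-2α, lies on chromosome 17 from 87061128 to 87140838 on the plus strand and was low throughout. It had 20, 31 and 19 counts in WT and 28, 31 and 13 in KO, a log2 fold change of -0.24 (SE 0.36), and was the only member with a negative value. The sign of neither Hif1a nor Epas1 was fixed by these data, since leaving out single libraries gave values from -0.03 to 0.04 and from -0.54 to 0.07.

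The general partners differed by less than Sim2 and Ahr. Arnt (chromosome 3, from 95341699 to 95404551, plus strand) had 13.9, 14.6 and 13.9 FPKM in WT and 15.2, 15.6 and 15.7 FPKM in KO. The genotypes did not overlap, but the log2 fold change was only 0.13 (SE 0.07). Arnt2, the partner used chiefly in the nervous system and kidney, lies on chromosome 7 from 83895486 to 84059384 on the minus strand. Its counts were 133, 195 and 263 in WT and 458, 343 and 323 in KO, or 1.36, 1.81 and 1.82 FPKM in WT and 2.79, 2.67 and 2.61 FPKM in KO. Every KO library was above every WT library, with a log2 fold change of 0.69 (SE 0.12), and WT1 was the low library of its group.

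Of the AHR targets among the members, Tiparp (chromosome 3, from 65435831 to 65462939, plus strand) had 9.89, 10.5 and 9.72 FPKM in WT and 10.8, 11.3 and 10.7 FPKM in KO. Its log2 fold change was 0.12 (SE 0.09), although the genotypes did not overlap. Cyp1b1 (chromosome 17, from 80008966 to 80022490, minus strand) stood at percentile 91.1 in WT and 93.2 in KO among the 26898 genes with counts. It had 21.8, 24.3 and 22.3 FPKM in WT and 28.3, 29.4 and 27.3 FPKM in KO, again without overlap, and a log2 fold change of 0.31 (SE 0.07). Tiparp and Cyp1b1 thus differed in the same direction as Ahr, but by far less than the 2.45 of Ahr on the log2 scale.

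Taking the 10 members as a list, 9 had a positive and 1 a negative log2 fold change, with a median of 0.44 where the median over all genes tested was 0.01. In the edgeR quasi-likelihood fit over all genes, 4 members (Ahr, Arnt2, Sim2 and Cyp1b1) were higher and 0 lower at an adjusted p below 0.05, where 4.97% of all genes tested were called higher and 4.03% lower. With a 2-fold change required as well, 2 (Sim2 and Ahr) were higher, where the share was 1.75% higher and 0.665% lower over all genes. CPM values of the genotypes did not overlap for 6 members (Ahr, Arnt, Arnt2, Sim2, Tiparp and Cyp1b1), each higher in KO, where 11.6% of all genes tested stood wholly higher and 10.1% wholly lower. Since the members were chosen around genes known to be higher, these calls are no test of them, and nothing is read from these counts. All 10 had more than 3 counts in every library, and none lies on chromosome 2, which carries Mcm8.

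**Figure D1:**
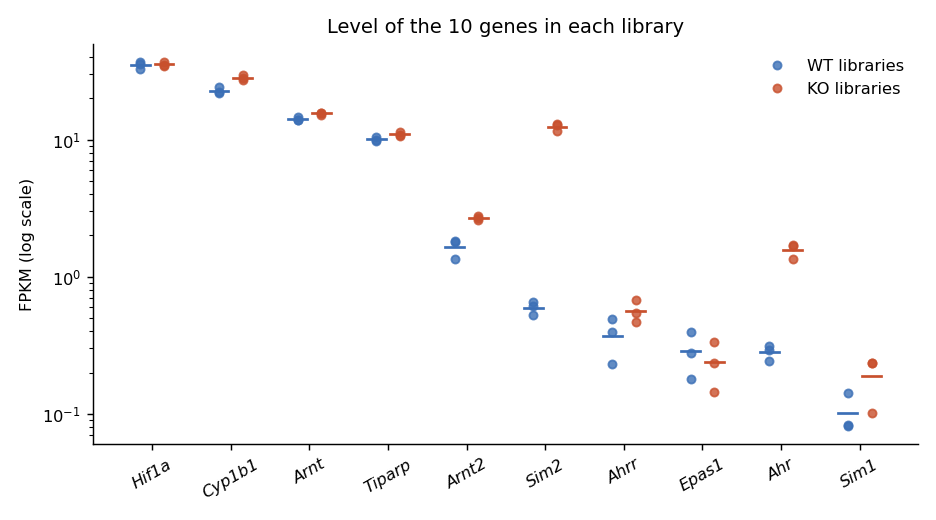
The level of each of the 10 genes in FPKM (log scale) is plotted for the 3 WT and 3 KO libraries (points), with the mean of each genotype as a bar, in order of the WT mean. Sim2 moves from a mean of 0.596 to 12.4 FPKM and Ahr from 0.282 to 1.57 FPKM, while the log2 fold changes of Hif1a, Arnt, Tiparp and Cyp1b1 are 0.01, 0.13, 0.12 and 0.31.

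Ordered by mean FPKM, the WT libraries had Hif1a, Cyp1b1, Arnt, Tiparp, Arnt2, Sim2, Ahrr, Epas1, Ahr and Sim1 from highest to lowest. The ranges of Ahrr and Epas1 overlapped, as did those of Epas1 and Ahr, while other neighbours in the order did not. In KO the order was Hif1a, Cyp1b1, Arnt, Sim2, Tiparp, Arnt2, Ahr, Ahrr, Epas1 and Sim1, and only the ranges of Epas1 and Sim1 overlapped. Sim2 thus passed Tiparp and Arnt2, and Ahr passed Epas1 and Ahrr. The plot of levels by library shows these changes of place.

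Because the signal-regulated subunits share their partners, their summed levels were set beside those of Arnt and Arnt2. Ahr, Ahrr, Sim1, Sim2, Hif1a and Epas1 summed to 36.7 ± 2.08 FPKM in WT and 50.3 ± 0.438 FPKM in KO (SD, n = 3 each). Without Hif1a the sum was 1.64 ± 0.158 FPKM in WT and 14.98 ± 0.644 FPKM in KO, so almost the whole difference lay outside Hif1a. Sim2 made up 1.75%, 1.36% and 1.79% of the summed subunits in the WT libraries and 25.7%, 22.6% and 25.9% in the KO libraries, in order of their numbers. Hif1a correspondingly made up 95.5 ± 0.406% in WT and 70.2 ± 1.51% in KO, and Ahr 0.770 ± 0.106% and 3.11 ± 0.373%.

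The partners Arnt and Arnt2 summed to 15.8 ± 0.555 FPKM in WT and 18.2 ± 0.164 FPKM in KO, and the ratio of subunits to partners was 2.32 ± 0.124 in WT and 2.76 ± 0.0191 in KO. For every 100 FPKM of partner there were 3.79 ± 0.542 FPKM of Sim2 in WT and 68.3 ± 4.92 in KO. For Ahr the same measure was 1.78 ± 0.176 in WT and 8.59 ± 1.00 in KO. Arnt2 made up 10.5 ± 1.42% of the partner level in WT and 14.8 ± 0.637% in KO, so Arnt remained the main partner in both genotypes.

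Within the AHR branch, the ratio of Ahr to its repressor Ahrr was 0.807 ± 0.209 in WT and 2.82 ± 0.314 in KO. The ratio of Sim2 to Ahr was 2.16 ± 0.509 in WT and 8.06 ± 1.43 in KO, so that Sim2 was the higher of the pair in every library. These are ratios of transcript levels per gene length, not of proteins.

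**Figure D2:**
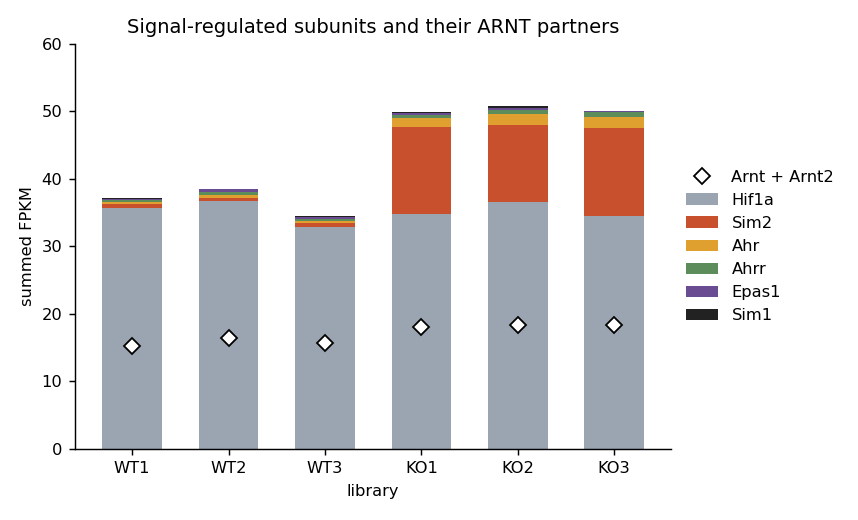
Stacked bars give the summed FPKM of Hif1a, Sim2, Ahr, Ahrr, Epas1 and Sim1 in each library, and diamonds the summed FPKM of Arnt and Arnt2. Hif1a fills nearly the whole bar in the 3 WT libraries, and Sim2 takes between 22.6% and 25.9% of it in the 3 KO libraries.

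The genes around the AHR branch were examined next, with calls from the edgeR quasi-likelihood fit and p-values adjusted over all 26898 genes tested. Over all of these genes 4.97% were called higher and 4.03% lower, and in the lists and neighbourhoods given next a count of 0 or 1 lies within about 1 gene of those shares. Of 13 AHR target genes outside the members, 12 were tested, 0 rose, 1 fell and 11 did not pass, and their median log2 fold change was 0.38. DESeq2 likewise called 0 higher, and at an unadjusted p below 0.05 edgeR gave 3 higher (Nqo1, Nfe2l2 and Serpinb2, the last with at most 3 counts). Without WT1 the edgeR test with adjusted p called 1 higher. The median rests on genes with hardly any reads, since 7 of the 13 had at most 3 counts in every library. Cyp1a1, the gene that AHR ligands induce most, had 1, 2 and 0 counts in WT and 0, 0 and 2 in KO, which is at or under the floor of 3 counts in every library, and Cyp1a2 had none. No difference in Cyp1a1 could be detected at this depth.

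The target that fell was Slc7a5, an amino acid transporter, which also had the highest FPKM of the list. It was at 462, 501 and 514 CPM in WT and 399, 393 and 407 CPM in KO. The genotypes did not overlap, and the log2 fold change was -0.30 (SE 0.07, edgeR adjusted p = 0.000162). Nqo1, a quinone reductase that AHR and NRF2 both regulate, did not pass the test, with a log2 fold change of 0.31 (SE 0.12, edgeR adjusted p = 0.070).

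Among 8 AHR chaperones and regulators 1 rose, 1 fell and 6 did not pass, with a median log2 fold change of -0.08. Src, a kinase held in the AHR complex, rose from 91.0 ± 3.62 to 117 ± 6.25 CPM (log2 fold change 0.36, SE 0.08, edgeR adjusted p = 5.58e-05). Ptges3, the co-chaperone of HSP90 in that complex, fell from 224 ± 32.2 to 179 ± 15.2 CPM (log2 fold change -0.33, SE 0.07, edgeR adjusted p = 0.000109). The Ptges3 call was lost without KO3 (adjusted p = 0.0515). Hsp90ab1, which encodes the HSP90 of highest level here, was at 3185 ± 114 CPM in WT and 3245 ± 87.2 CPM in KO, with overlapping genotypes.

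On the oxygen-sensing side, the median log2 fold change of 14 HIF target genes was 0.00, and 1 rose, 2 fell and 11 did not pass. Adm, which encodes the vasodilator adrenomedullin, was at 27.4, 25.9 and 27.6 CPM in WT and 13.9, 18.6 and 13.4 CPM in KO. It fell by 0.82 on the log2 scale (SE 0.11, edgeR adjusted p = 7.08e-12), with all KO libraries below all WT libraries. Ndrg1, a stress-induced gene, fell by 0.29 (SE 0.08, edgeR adjusted p = 0.00557), a call lost without WT3 (adjusted p = 0.0527) or KO2 (adjusted p = 0.117). Pdk1, the kinase that limits entry of pyruvate into mitochondria, rose from 24.6 ± 1.79 to 34.3 ± 1.01 CPM (log2 fold change 0.47, SE 0.10, edgeR adjusted p = 4.98e-05). Ldha, the lactate dehydrogenase with the highest level of the list, was at 844 ± 49.7 CPM in WT against 908 ± 7.13 CPM in KO and did not pass. Adm and Pdk1, both textbook HIF targets, thus differed in opposite directions.

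Of 8 regulators that sense oxygen and degrade HIF, 0 rose, 1 fell and 7 did not pass, with a median log2 fold change of 0.04. DESeq2 also called 0 higher, and 1 (Egln2) was higher at an unadjusted p below 0.05. Cul2, the scaffold of the VHL ubiquitin ligase, fell by 0.25 on the log2 scale (SE 0.08, edgeR adjusted p = 0.0212). Its call was lost without WT2 (adjusted p = 0.0651), KO1 (0.163), KO2 (0.070) or KO3 (0.176), and was kept without WT1 (0.00131) or WT3 (0.0401). Elob, the elongin subunit with the highest level of the list, was at 117 ± 16.7 CPM in WT and 122 ± 0.525 CPM in KO.

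Among 11 other bHLH-PAS genes 0 rose, 2 fell and 9 did not pass, with a median log2 fold change of -0.20. DESeq2 called 0 higher as well, and 1 (Npas1, at most 24 counts) was higher at an unadjusted p below 0.05. Those that fell were the partners of the circadian factor CLOCK. Arntl, which encodes BMAL1, was at 32.8, 39.1 and 37.7 CPM in WT and 23.7, 22.4 and 22.1 CPM in KO, without overlap, and fell by 0.69 on the log2 scale (SE 0.10, edgeR adjusted p = 2.47e-10). Arntl2, its paralogue, was at 5.56, 7.63 and 6.82 CPM in WT and 4.06, 4.45 and 3.68 CPM in KO, and fell by 0.72 (SE 0.19, edgeR adjusted p = 0.00397). Clock itself was at 80.2 CPM in WT and 74.0 CPM in KO with overlapping genotypes. Ncoa3, a steroid receptor coactivator with the highest level of this list, was at 8.98 FPKM in WT and 9.07 FPKM in KO.

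For SIM2, 5 genes described as lying downstream of it in other cells were listed, and 1 rose, 0 fell and 4 did not pass, with a median log2 fold change of 0.06. DESeq2 called 0 lower too, and Snai2 was the 1 gene lower at an unadjusted p below 0.05. Mmp2, a secreted gelatinase and the gene of the list with the highest level, was at 96.6, 100 and 97.1 CPM in WT and 139, 138 and 141 CPM in KO. It rose by 0.51 on the log2 scale (SE 0.07, edgeR adjusted p = 6.2e-10). Snai2, the transcription factor SLUG, had a log2 fold change of -0.22 (SE 0.09, edgeR adjusted p = 0.128), and Bnip3, listed also as a HIF target, had 0.06 (SE 0.12). Myom2 had at most 2 counts in any library. None of the genes in these 6 lists passed the test with a 2-fold change.

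**Figure D3:**
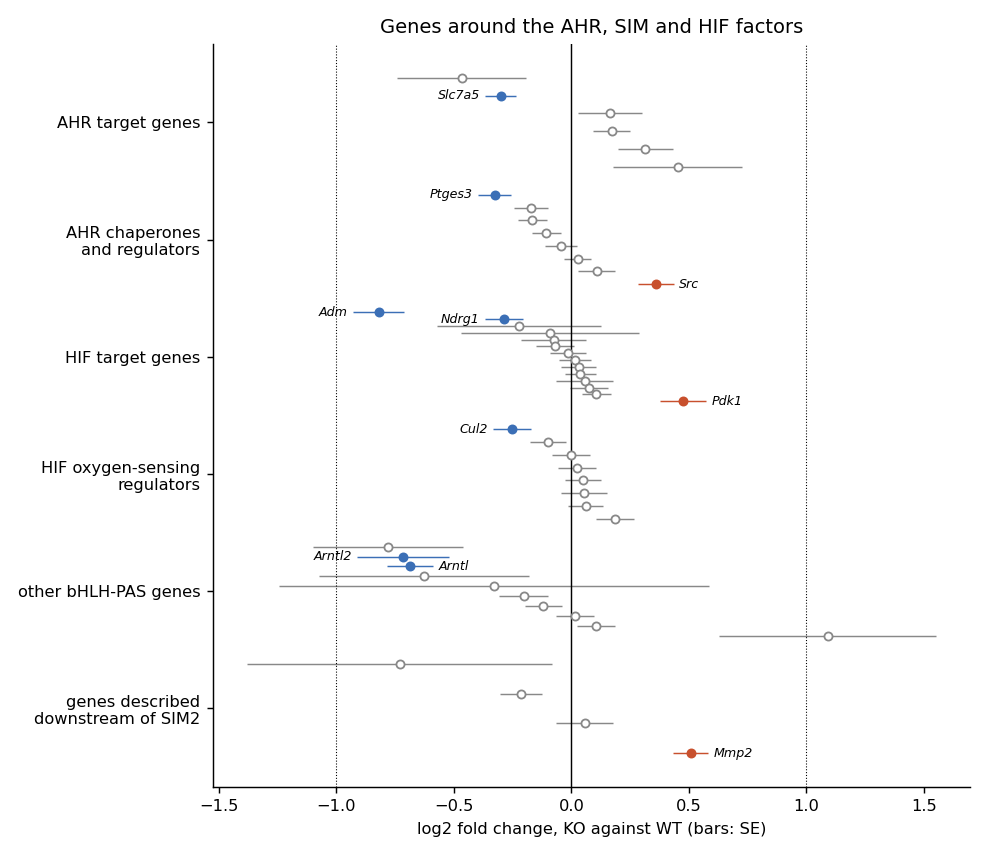
Log2 fold changes of KO against WT (points, with SE bars) are shown for genes of the 6 lists that had more than 3 counts in at least 1 library. Filled and named points passed an adjusted p of 0.05, higher in red and lower in blue, open points did not, and dotted lines mark a 2-fold change, which no named gene reaches.

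The genome around Sim2 was examined because neighbouring genes can share regulatory DNA. Within 500 kb of Sim2 the tables listed 34 genes, of which 14 were protein-coding and 23 could be tested, and edgeR called 1 higher and 0 lower. At an unadjusted p below 0.05, 1 (Hlcs) was lower, and DESeq2 called 0 in either direction. The gene that rose was Gm49620, an lncRNA on the opposite strand (chromosome 16, from 93882510 to 93884725) whose start lies 1.065 kb before that of Sim2. It had 0 counts in each WT library and 14 in KO1, 6 in KO2 and 4 in KO3 (edgeR adjusted p = 0.00363). Against a floor of 3 counts per WT library its mean in KO was at least 2.08-fold higher. KO1 held most of its counts, and KO3, with 4, lay near the floor. The call was lost without KO1 (edgeR adjusted p = 0.120). Gm49620 had too few counts for an adjusted p in DESeq2 and did not pass filterByExpr. The 12 protein-coding neighbours with a mean of at least 1 CPM had log2 fold changes between -0.30 (Hlcs) and 0.09 (Dyrk1a), and none passed the test. Hlcs, the biotin ligase gene that follows Sim2 at a gap of 1.85 kb, was at 15.4 ± 1.98 CPM in WT and 12.5 ± 1.51 CPM in KO.

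**Figure D4:**
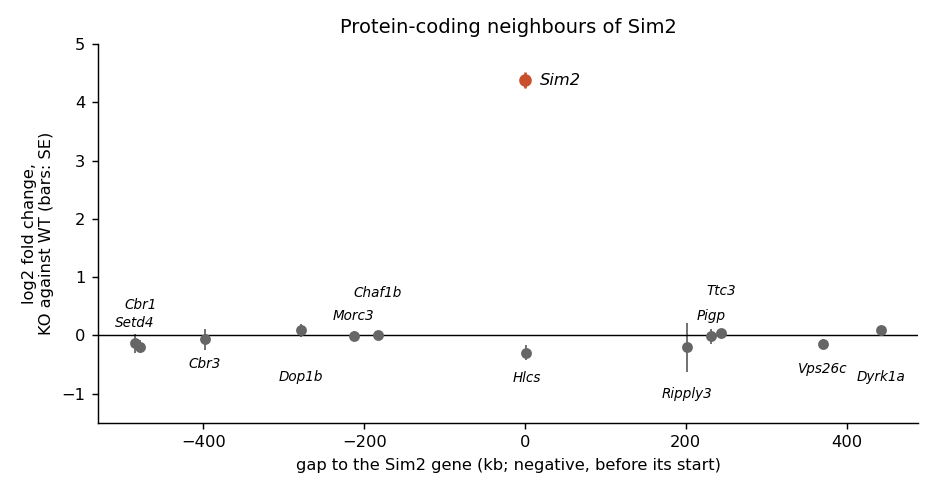
The log2 fold change of KO against WT (points, with SE bars) is plotted against the gap in kb between Sim2 and each of the 12 protein-coding neighbours within 500 kb that had a mean of at least 1 CPM. Sim2 stands alone at 4.38, and its neighbours lie between -0.30 and 0.09.

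Ahr lies in a sparser region. Within 500 kb of it the tables listed 18 genes, of which 4 were protein-coding and 5 could be tested, and 0 were called by edgeR or DESeq2, with 1 (Tspan13) past an unadjusted p of 0.05. Snx13, a sorting nexin, had a log2 fold change of -0.12 (SE 0.08, edgeR adjusted p = 0.516), and Tspan13, a tetraspanin at a mean of 0.471 CPM in WT and 1.22 CPM in KO, had 1.34 (SE 0.48, edgeR adjusted p = 0.0593). The library kit is not stated to keep strand, so reads of overlapping genes cannot be told apart. The overlapping genes had low counts, which does not bound the reads affected, and the lncRNA Gm15283 spans the whole of Hif1a. No gene overlapped Sim2, the lncRNA Gm48236 that overlaps Ahr had 0 counts, and genes overlapping Arnt, Arnt2, Hif1a and Tiparp had at most 16, 10, 26 and 23 counts in any library.

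The genes most like Sim2 across the 6 libraries were sought among 11752 protein-coding genes with a mean of at least 1 CPM, by Pearson's r of log2(CPM + 1). The 5 highest included Cd34 (r = 0.9997), Slco2a1 (r = 0.9996), Wnt10b (r = 0.9992) and Gjb2 (r = 0.9985). Cd34, a sialomucin of fibroblast and progenitor surfaces, was at 13.1 ± 0.539 CPM in WT and 36.2 ± 1.25 CPM in KO. Slco2a1, a prostaglandin transporter, was at 4.99 ± 0.341 and 28.0 ± 0.565 CPM, and Wnt10b, a Wnt ligand, at 4.16 ± 0.266 and 18.6 ± 0.284 CPM. The libraries fall into the genotypes, so r is set mainly by the step between them, and 849 genes had r above 0.9 with Sim2. For Ahr the 5 highest were Als2cl (r = 0.9973), Sod3 (r = 0.9972), Fhod3 (r = 0.9970), Trpv4 (r = 0.9965) and Pla2g4a (r = 0.9964), and 839 genes had r above 0.9.

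Markers of other cell types that a trunk culture could hold were read beside these results. Of 10 fibroblast markers 3 rose (Col1a1, Col3a1 and Fn1) and 3 fell (Pdgfrb, Thy1 and Vim), with summed levels of 3328 to 3728 FPKM in WT and 3615 to 3732 FPKM in KO. Thy1, a surface glycoprotein, fell by 1.03 on the log2 scale (SE 0.07, edgeR adjusted p = 3.44e-47). The Fn1 call was lost with DESeq2 (adjusted p = 0.356) and with filterByExpr (adjusted p = 0.105). The Vim call was lost without KO1 (adjusted p = 0.123) or KO2 (adjusted p = 0.101).

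Mesothelial markers summed to between 3.86 and 4.75 FPKM in WT and between 18.0 and 20.7 FPKM in KO. Of 8 markers 2 rose (Msln by a log2 fold change of 3.96 and Krt19 by 0.85) and 1 fell (Bnc1, -0.60), while Lrrn4 and Muc16 were at 0 and Upk3b had at most 2 counts. The Bnc1 call was lost with DESeq2 (adjusted p = 0.0954) and without WT3 (adjusted p = 0.252), KO1 (adjusted p = 0.0613) or KO3 (adjusted p = 0.146). Chondrocyte markers summed to between 3.20 and 3.74 FPKM in WT and between 7.71 and 7.83 FPKM in KO, with Sox9 (1.37) and Acan (1.12) higher of 6 and Col9a1 and Matn1 at 0. Neuronal markers summed to between 12.4 and 14.2 FPKM in WT and between 30.5 and 31.4 FPKM in KO, with Stmn2 (2.91) and Tubb3 (0.67) higher of 6 and Snap25 and Rbfox3 at 0. Summed levels of these 3 lists were higher in every KO library, as were Sim2 and Ahr, but most of their markers did not pass the test or were at 0. In the mesothelial sum Msln alone went from a mean of 0.938 FPKM in WT to 14.6 FPKM in KO. The part of these markers in the levels of Sim2 and Ahr was not tested.

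Of the epithelial, skeletal muscle, endothelial and macrophage markers edgeR and DESeq2 called 0, and at an unadjusted p below 0.05 only Cdh1, an epithelial marker, was higher (1 gene). Epithelial markers summed to between 0.0968 and 0.229 FPKM in WT and between 0.298 and 0.438 FPKM in KO. This sum was thus also higher in every KO library, though 5 of the 7 markers had at most 3 counts in every library. Skeletal muscle markers summed to at most 0.0498 FPKM in WT and 0.116 FPKM in KO, and endothelial markers to at most 0.459 and 0.513 FPKM. Macrophage markers summed to at most 1.998 FPKM in WT and 2.66 FPKM in KO. Krt5 and Esrp1 of the epithelial, Myod1, Pax7 and Ckm of the muscle, Emcn and Tie1 of the endothelial and Adgre1 and Tyrobp of the macrophage markers were at 0 in every library.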

How the data were processed

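Bulk RNA of 3 WT and 3 KO MEF libraries was sequenced. The authors prepared libraries with a NEBNext Ultra kit, aligned the reads with HISAT2 (2.0.5) and counted them per gene with featureCounts (1.5.0-p3). Per the submitters' processing notes, CASAVA (1.8), fastp and DESeq2 (1.20.0) were also used. The authors deposited raw counts and FPKM values for 55565 genes, the deposited FPKM being proportional to counts over gene length within each library. Their notes name GRCm38, whereas the coordinates in the tables are those of GRCm39 (Ensembl annotation), so positions of genes are given on GRCm39 and promoters, from RefSeq, on GRCm38.p6. Of the loci, 151 had no Ensembl gene and held from 0.0976% to 0.113% of counts. No other columns of per-sample values were left aside (0).

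Genes with any reads (FPKM above 0 in 1 library or more, 26898 in all) went into edgeR's quasi-likelihood test (edgeR 4.0.16, R 4.3.3), with TMM scaling, no covariate and Benjamini-Hochberg adjustment over all of them. Since the prior degrees of freedom came out infinite, the spread of each gene was that of the trend alone, and the p-values of genes more variable than the trend are too small. Standard errors are the log2 fold change over the root of its F statistic. They too rest on the trend, and are too small for genes more variable than it. CPM are counts over library totals adjusted with TMM factors. Simulated data were used to test the fit. With 3 libraries on each side, the smallest two-sided p of an exact permutation test is 0.1. Tables and plots were made with Python 3.11.15 (pandas 2.3.3, NumPy 2.4.6, matplotlib 3.10.9).

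The members and the gene lists were chosen with earlier results of these data known. Named were all members, in each pathway list the genes past the threshold and the gene with the highest mean FPKM, called genes within 500 kb of Sim2 and Ahr, the 5 genes most correlated with each, and the markers called. A gene that this rule names is not reported here. Cyp1a1, Nqo1, Nfe2l2, Serpinb2, Egln2, Npas1, Clock, Snai2, Cdh1, Bnip3, Myom2, Hlcs, Dyrk1a, Snx13 and Tspan13 were named after their values were seen. Alternatives were DESeq2 (1.42.0), RLE scaling, filterByExpr, no filter, a replicate block, leaving out single libraries, a 2-fold call and log2(FPKM + 1) or log2(FPKM + 0.1). Libraries of the same number did not deviate together (r = -0.0259, -0.0139 and 0.0474 over 14332 genes), and the labels do not pair them.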

Additional observations from a re-analysis of the deposited data

How the results depend on the processing

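Over the whole table the counts of genes past 2-fold moved by less than 1.5 times under every alternative. Of 166 counts over the lists and the table under the alternatives, 141 stayed within 1.5 times, and of 130 member values 124 moved by less than the spread between libraries. Requiring a 2-fold change left 0 calls in every pathway list, among them AHR targets, chaperones, HIF targets, HIF regulators, other bHLH-PAS genes and genes downstream of SIM2. The AHR chaperones that fell numbered 2 with DESeq2 and 2 with the replicate block, against 1, and the block moved no other count by over 1.5 times. Leaving out single libraries gave, for genes that rose, 0 to 1 AHR targets, 1 to 2 chaperones, 1 to 2 HIF targets and 0 to 2 HIF regulators, and for genes that fell, 0 to 3 chaperones, 1 to 2 HIF targets, 0 to 1 HIF regulators and 2 to 4 other bHLH-PAS genes. The highest of these counts came without WT1, except those of HIF targets and HIF regulators that fell, which were no higher than with all libraries. The cause was not tested. On log2(FPKM + 1) the difference was 3.07 for Sim2, 1.00 for Ahr, 0.48 for Arnt2 and 0.11 for Sim1, and on log2(FPKM + 0.1) it was 4.17 for Sim2 and 2.12 for Ahr, since a pseudocount shrinks low levels. Without single libraries Sim2 ranged from 4.30 to 4.43 and Ahr from 2.36 to 2.56. RLE scaling moved the median of all genes by -0.00088. Of the 13 AHR targets, 7 had at most 3 counts in every library, which limits what could be seen in them. Several members, among them Ahrr, Arnt2, Sim1, Epas1 and Hif1a, varied between WT libraries by more than counting alone would give.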
